A study of Mus musculus with 8 samples.

Results

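A set of 3 genes of cell-to-cell adhesion, the protocadherin gene Pcdh19, the Dachsous cadherin gene Dchs1 and the teneurin gene Tenm4, were examined in the 5-hydroxymethylcytosine (5hmC) profiles of mouse myoblasts. They were picked by name, with their signal in these libraries already known, and are 3 of the 273 genes whose profiles were deposited. Pcdh19 is 1 of the 220 genes that the authors marked UP. Dchs1 and Tenm4 are 2 of the 53 genes marked DOWN. The basis of these marks is not given in the sources used here, so they serve only as names of gene groups.

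The series compared primary myoblasts, grown from hindlimb muscle, of 2 genotypes, with 2 5hmC immunoprecipitation libraries and 2 input libraries per genotype. Psat1KO cells had the genotype Pax7 CRE+/-;Psat1fl/fl. CTRL cells had the genotype Pax7 +/+; Psat1fl/fl, so that both genotypes had the floxed alleles of Psat1, an enzyme gene of serine biosynthesis. Cre, placed at Pax7, the transcription factor gene of muscle stem cells, was present in Psat1KO cells alone. Age, sex and the number of animals are not in the labels, and neither is any drug treatment to induce Cre. The values came as 2 tables, here called set 1 and set 2, each with 1 Psat1KO and 1 CTRL library, and the 4 input libraries were not analysed here. The tables hold no expression values, so the myoblast label could not be checked against transcripts of its markers. As the cells were profiled in bulk, more 5hmC per cell and a larger share of cells carrying it cannot be told apart.

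5hmC is made when TET enzymes oxidise methylated cytosine, mostly at CG dinucleotides, and it is commonly found across transcribed genes and enhancers. Pcdh19 encodes an X-linked protocadherin, a cadherin-family receptor that joins cells by binding its like on neighbouring cells and that is best known from a human epilepsy. Dchs1 encodes a very large cadherin whose partner on the neighbouring cell is Fat4. This pair orients cells within tissues and acts on growth through the Hippo pathway. Tenm4 encodes a teneurin, a transmembrane protein that binds latrophilin receptors across cell contacts, and in mouse muscle it has been described in quiescent satellite cells.

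Pcdh19 lies on chromosome X (133582860 to 133689044, minus strand, GRCm38), Dchs1 on chromosome 7 (105752989 to 105788355, minus strand) and Tenm4 on chromosome 7 (96171244 to 96911093, plus strand). Their annotated lengths were 106185, 35367 and 739850 bases. Tenm4 ended 8841896 bases before Dchs1 began. To show the sequence on which 5hmC can form near the starts of these genes, the 250 bases before each transcript start listed in the RefSeq promoter table of GRCm38.p6 are printed for the genes with an entry. These were 2 of the 3 genes, with 2 starts for Tenm4. Capitals mark CG dinucleotides, whose letters read the same on both strands, and each sequence runs 5′ to 3′ along the gene's strand. The first is Pcdh19 (chrX:133688994-133689243, minus strand), whose listed start lies inside the outer bounds of the gene given above, so that the sequence overlaps them in part. The others are Tenm4 (chr7:96170994-96171243 and chr7:96211421-96211670, plus strand).
Pcdh19: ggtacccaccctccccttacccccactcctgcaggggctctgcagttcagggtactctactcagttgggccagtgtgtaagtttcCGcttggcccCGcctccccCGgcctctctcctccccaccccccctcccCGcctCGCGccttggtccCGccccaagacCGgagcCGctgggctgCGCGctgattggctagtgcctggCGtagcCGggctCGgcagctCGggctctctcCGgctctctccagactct
Tenm4, first start: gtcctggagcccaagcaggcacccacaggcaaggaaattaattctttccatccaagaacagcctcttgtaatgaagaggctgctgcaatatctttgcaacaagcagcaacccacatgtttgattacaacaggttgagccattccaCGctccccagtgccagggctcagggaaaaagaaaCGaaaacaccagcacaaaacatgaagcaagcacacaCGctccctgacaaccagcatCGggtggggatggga
Tenm4, second start: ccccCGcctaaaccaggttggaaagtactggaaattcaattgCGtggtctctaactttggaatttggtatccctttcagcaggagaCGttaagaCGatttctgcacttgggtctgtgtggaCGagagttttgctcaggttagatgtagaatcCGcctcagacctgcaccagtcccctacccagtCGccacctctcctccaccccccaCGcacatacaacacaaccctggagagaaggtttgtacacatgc

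The Pcdh19 promoter held 16 CG dinucleotides, a number reached by 25.4% of the 32851 promoters in that table, which had a median of 6. The Tenm4 promoters held 4 and 8, reached by 62.2% and 43% of promoters. Pcdh19 was thus the most CG-rich of these sequences, with 69.2% G or C against 50.8% and 51.6% at Tenm4. The position of the bins relative to these starts is not given in the sources used here, so no bin was assigned to a promoter.

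Each gene was described by a fixed number of consecutive bins of signal, a read coverage that is never negative, and its level was the mean over the bins. Whether this level depends on the length of a gene cannot be told, since the width and scaling of the bins are not stated. The smallest step of the values, taken as 1 read per 1000000, implied depths of 30559008 and 69794434 reads in the Psat1KO libraries of sets 1 and 2, against 22632699 and 69765570 in the CTRL libraries. On that assumption set 2 was the deeper set. In the DOWN block of set 1, none of the bins lay between 0 and 0.001, whereas 18.8% and 19.3% did in the Psat1KO and CTRL libraries of set 2. Bin profiles of the same genotype in the 2 sets had a median correlation over the DOWN genes of -0.00293 in Psat1KO and -0.00855 in CTRL, against 0.485 and 0.360 over the UP genes. Bins and levels of Dchs1 and Tenm4 are therefore compared only within a set.

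A fit of all 273 genes with limma, 2 Psat1KO libraries set against 2 CTRL libraries after adding 0.005 and taking log2, called 0% of them at a Benjamini-Hochberg threshold of 0.05. At the same threshold without adjustment there were 8. The fit pooled the sets, also for the DOWN genes, so differences between the sets counted as spread within a genotype. That limits what it could call. With the replicate number as a block it also called 0. Pcdh19, Dchs1 and Tenm4 were chosen with this contrast known, so their differences are described without a test. The labels do not say whether the libraries came from separate animals.

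The 5hmC level of Pcdh19 was 0.0182 in the Psat1KO and 0.00777 in the CTRL library of set 1. In set 2 it was 0.0169 in Psat1KO and 0.0136 in CTRL. The Psat1KO library was the higher one in each set, and both Psat1KO libraries lay above both CTRL libraries. Levels set across the 2 tables rest on the read step, since no common scaling is stated. The level averaged 0.0176 ± 0.000926 in Psat1KO and 0.0107 ± 0.00415 in CTRL (SD, n = 2 each), a ratio of means of 1.64. Nearly all of the spread lay between the CTRL libraries, of which the one of set 1 was the lowest of the series for this gene.

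**Figure D1:**
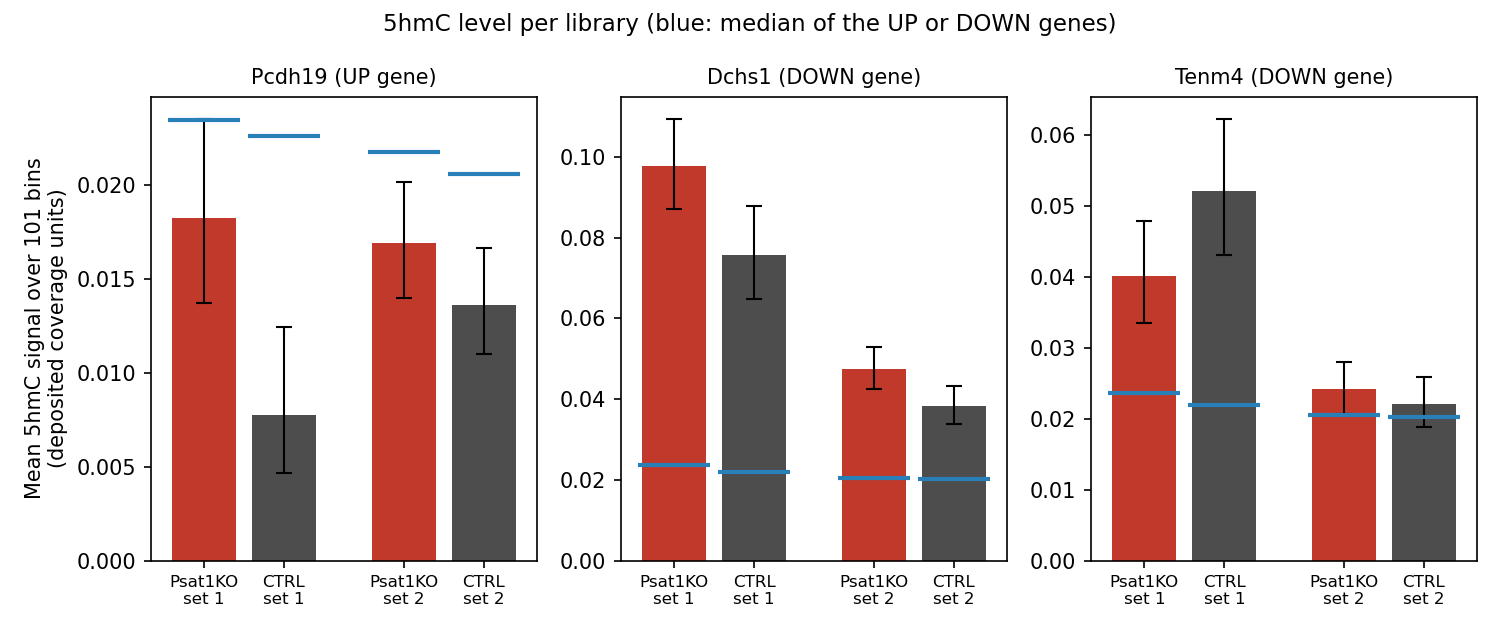
Bars give the mean 5hmC signal over the bins (deposited coverage units, linear axis from 0) of Pcdh19, Dchs1 and Tenm4 in the Psat1KO and CTRL libraries of each set. Black bars are exact 95% Poisson intervals of the summed reads and blue lines the median of the UP or DOWN genes in that library. Pcdh19 stayed below the UP median in all 4 libraries, and Dchs1 stood above the DOWN median in all 4.

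Counted in read steps, little coverage stood behind these levels. Reads are here coverage summed over the bins, which need not equal the number of distinct reads in a gene. Summed over the bins, the Pcdh19 signal of set 1 corresponded to 56 reads in Psat1KO (95% interval 42.3 to 72.7, exact Poisson) and 18 in CTRL (10.7 to 28.4). In set 2 it corresponded to 119 in Psat1KO (98.6 to 142) and 96 in CTRL (77.8 to 117). The Psat1KO to CTRL ratio was 2.35 in set 1 (95% interval 1.33 to 4.16) and 1.24 in set 2 (0.939 to 1.64), so counting error alone spans a ratio of 1 in the deeper set. These intervals take each step as an independent read, which is not established, and cover counting error only. Signals of neighbouring bins correlated at 0.0232 to 0.410 in the 3 genes, so the intervals may be too narrow. Leaving out the CTRL library of set 1 took the log2 ratio of the group means to 0.37, against a mean of 0.77 ± 0.65 over the sets (SD of log2 ratios, n = 2). Leaving out the CTRL library of set 2 took it to 1.18.

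Pcdh19 was a gene of low 5hmC level among the UP genes. Ranked from the highest of 220, it stood at place 155 in set 1 and 174 in set 2 in Psat1KO, and at 211 and 194 in CTRL. Its level was 0.778 times the UP median in both Psat1KO libraries, against 0.344 and 0.661 times in CTRL. In CTRL of set 1 it thus lay much further below the other UP genes than in the remaining libraries. By ratio it ranked first of 215 UP genes with a level of at least 0.005 in both libraries of set 1, and 28 of 214 in set 2. A ratio of 1.2 or more in favour of Psat1KO was reached by 25% of all such genes in set 1 and by 14.8% in set 2. It was reached in both sets by 5.32%, 14 genes of 263, which included Pcdh19 and Dchs1.

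Because Pcdh19 is X-linked, the other X-linked genes were set beside it, a comparison chosen after the values were seen. The tables held 8 X-linked genes matched by transcript. The other 7 had a median Psat1KO to CTRL ratio of 1.29 in set 1 and 0.982 in set 2, against 0.983 and 1.03 over all genes. In set 1, 5 of the 7 were higher in Psat1KO, and in set 2, 3 of the 7. Bgn, the gene of the matrix proteoglycan biglycan, had ratios of 1.43 and 1.32 (sets 1 and 2). Capn6, a calpain-family gene marked DOWN, had 3.54 and 1.31, the first from a CTRL level of 0.00394. Pcdh19 was thus one of 3 X-linked genes that were more than 1.2 times higher in both sets. The median level of the 4 other X-linked UP genes was 0.862 and 0.704 times that of the autosomal UP genes in Psat1KO (sets 1 and 2), against 0.709 and 0.809 times in CTRL. Relative to autosomes these X-linked genes were thus higher in Psat1KO in set 1 and lower in set 2. Their part in the Pcdh19 ratio was not tested. Divided by the median of those 4 genes, the log2 ratio of Pcdh19 was 0.90 in set 1 and 0.44 in set 2.

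Along the bins, the Pcdh19 signal was strongest at the high-numbered end. The bins from 81 to the last carried 43% of it in Psat1KO and 56.3% in CTRL of set 1, and 33.4% in Psat1KO and 32.9% in CTRL of set 2. A bin was called high where it reached 3 times the mean of the gene in that library. By this measure Psat1KO had 14 and 10 high bins in sets 1 and 2, and CTRL had 10 and 9. Bin 93 was the only bin that was high in all 4 libraries, with 7.19 and 4 reads in Psat1KO and 4 and 8 in CTRL. In CTRL of set 1 only 10 bins held signal above 0.001, against 25 in Psat1KO, and each of the 10 was a high bin. The high bins of that library are therefore no more than its covered positions.

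**Figure D2:**
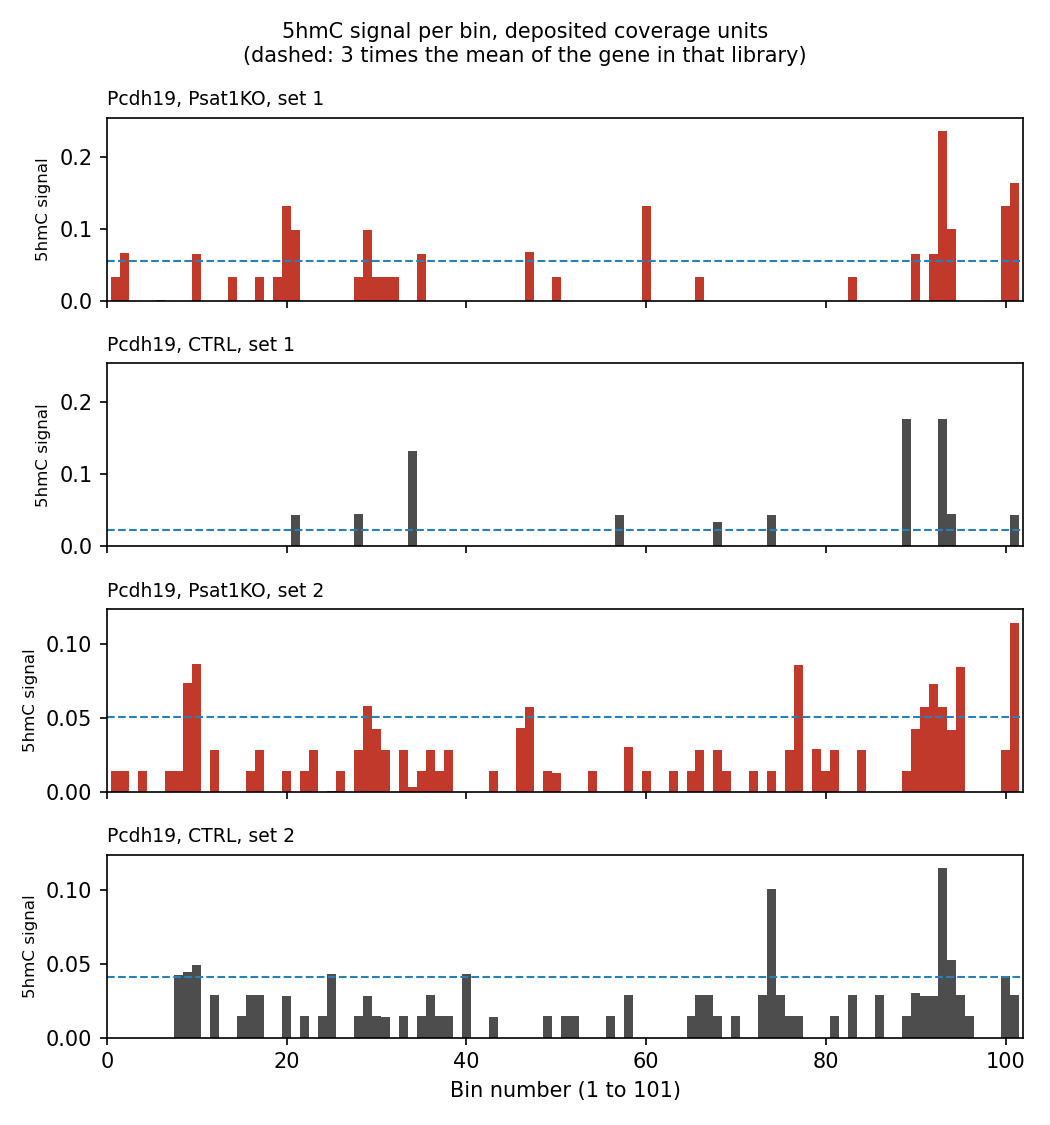
Bars give the 5hmC signal of Pcdh19 (deposited coverage units) in each bin, 1 panel per library, on the same vertical axis within a set; the dashed line is 3 times the mean of the gene in that library. Bin 93 rises above the line in all 4 panels, and bins 1 to 20 are empty only in CTRL of set 1.

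In each set, the Pcdh19 signal was higher in Psat1KO in 4 of 5 stretches of bins. In bins 1 to 20 of set 1 the Psat1KO library had a mean signal of 0.0197, or 12 reads, and the CTRL library had 0 reads, which allows a signal of up to 0.00663 (3 reads). The Psat1KO signal there was 2.97 times that limit, a value that leaves out the counting error of its 12 reads. In set 2 the same bins held 0.0159 in Psat1KO and 0.0133 in CTRL, so the empty stretch was a feature of 1 library. In bins 41 to 60 the ratio was 5.23 in set 1, from 7.06 reads in Psat1KO and 1 in CTRL, and 2.0 in set 2, from 14 reads in Psat1KO and 7 in CTRL. Bins 61 to 80 were the only stretch without an excess, with ratios of 0.419 and 0.996. Between the genotypes, profiles over the bins had a Pearson r of 0.371 in set 1 and 0.427 in set 2, against medians over the UP genes of 0.283 and 0.607. These correlations describe bins that share a gene and are no test. The Pcdh19 profile stood at place 67 of 215 UP genes in set 1, more alike between genotypes than most. In the deeper set it was less alike than most, at place 190 of 214. The part of read number in these places was not tested.

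Dchs1 stood out by its level. It was 0.0978 in Psat1KO and 0.0757 in CTRL of set 1, and 0.0475 in Psat1KO and 0.0383 in CTRL of set 2. Among the 53 DOWN genes these levels ranked first in both libraries of set 1. In set 2 they ranked second in Psat1KO and at place 4 in CTRL. They were 4.14 and 2.31 times the DOWN median in Psat1KO (sets 1 and 2), against 3.46 and 1.89 times in CTRL. Dchs1 was thus among the DOWN genes of highest 5hmC signal in every library. Its coverage in the input libraries was not examined.

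Psat1KO was higher than CTRL at Dchs1 in both sets, by nearly the same ratio over all bins. The ratio was 1.29 in set 1 (95% interval 1.07 to 1.57) and 1.24 in set 2 (1.05 to 1.46), a mean log2 ratio of 0.34 ± 0.043 (SD, n = 2). The reads behind it were 302 in Psat1KO and 173 in CTRL of set 1, and 335 in Psat1KO and 270 in CTRL of set 2. By these summed reads, Dchs1 was the best covered of the 3 genes. The basis of the DOWN mark of this gene is not given, so the mark is not set against the direction of its 5hmC ratio. Of the 53 DOWN genes, 14 were higher and 13 lower in Psat1KO in both sets. Over all genes with both ratios, 29.6% were higher and 23.2% lower in both.

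**Figure D3:**
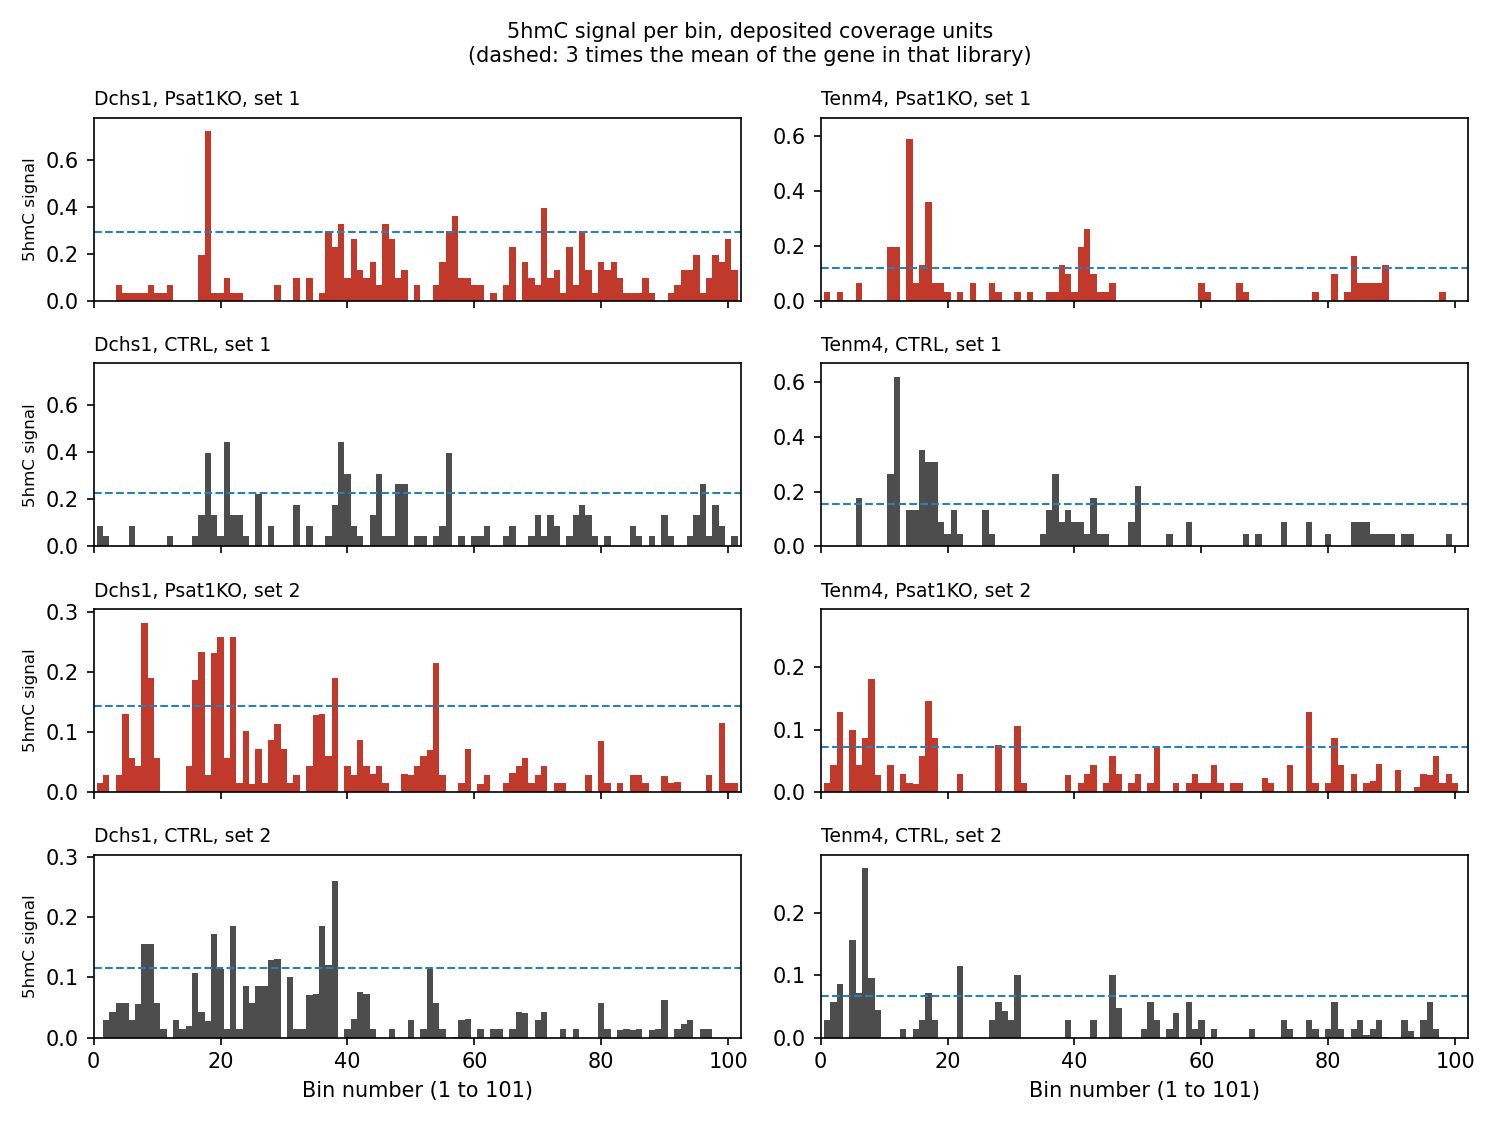
Bars give the 5hmC signal of Dchs1 (left) and Tenm4 (right) in each bin (deposited coverage units), 1 panel per library, with the vertical axis shared within a gene and set; the dashed line is 3 times the mean of the gene in that library. High bins are partly shared between genotypes within a set, and bin numbers of set 1 should not be read against those of set 2.

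In set 2 the Dchs1 signal was concentrated in the low-numbered bins. Bins 1 to 40 carried most of it in both genotypes, with 37.7% in bins 1 to 20 and 30.0% in bins 21 to 40 in Psat1KO, against 30.5% and 42.4% in CTRL. In set 1 the stretches of those numbers held 13.9% and 14.2% in Psat1KO, against 13.3% and 30.1% in CTRL. The rest was spread over the bins above 40. The excess of Psat1KO did not extend to every stretch. In set 1, bins 21 to 40 were lower in Psat1KO, at 0.612 times CTRL, and the other stretches had ratios between 1.35 and 1.85. Within set 2, where a bin number need not mark the same place, bins 21 to 40 were at 0.876 times CTRL and the other stretches between 1.3 and 1.62.

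High bins of Dchs1 were partly shared between genotypes. In set 1, Psat1KO had 8 and CTRL 9, with bins 18, 39 and 56 in common, which is 37.5% of the Psat1KO and 33.3% of the CTRL high bins. The highest was bin 18 in Psat1KO, with 22 reads, where CTRL had 9 reads. In set 2 each genotype had 9 high bins and 5 were shared (bins 8, 9, 19, 22 and 38), or 55.6% of either. Bins 19, 20 and 22 held 16.1, 18 and 18 reads in Psat1KO, against 12, 7.96 and 13 reads in CTRL. Of these, bin 20 was not a high bin in CTRL. The profiles had a Pearson r of 0.405 in set 1 and 0.744 in set 2, against DOWN medians of 0.226 and 0.596, at place 9 of 49 genes and 9 of 50. Dchs1 was also among the DOWN genes of highest level, and the part of read number in these correlations was not tested.

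Tenm4 had levels of 0.0402 in Psat1KO and 0.0521 in CTRL of set 1, and of 0.0241 in Psat1KO and 0.0221 in CTRL of set 2. Psat1KO was the lower library in set 1 and the higher in set 2, so the sets did not share a direction. The ratio was 0.772 in set 1 (95% interval 0.595 to 1.00) and 1.09 in set 2 (0.871 to 1.36), and both intervals included 1. A ratio of 0.833 or lower was reached by 22.7% of all genes in set 1 and by 7.58% in set 2. The mean log2 ratio was -0.12 ± 0.35 (SD, n = 2), smaller than the spread between the sets. The reads behind these values were 124 in Psat1KO and 119 in CTRL of set 1, and 170 in Psat1KO and 156 in CTRL of set 2.

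Among the DOWN genes Tenm4 ranked at place 7 in Psat1KO and 3 in CTRL of set 1. In set 2 it ranked at 18 in Psat1KO and 21 in CTRL, close to the DOWN median, at 1.18 and 1.09 times. Within set 1, bins 1 to 20 carried 45.2% of its signal in Psat1KO and 46.2% in CTRL. The Psat1KO signal there was 0.754 times that of CTRL, the lowest ratio of the set was 0.529 in bins 61 to 80, from 5 reads in Psat1KO and 7 in CTRL, and only the bins from 81 on were higher, at 1.25 times. Within set 2, bins 1 to 20 carried 41.5% in Psat1KO and 43.4% in CTRL. There the ratios ran between 0.630 in bins 21 to 40 and 2.62 in bins 61 to 80, a stretch with 23.6 reads in Psat1KO and 9 in CTRL. The share of the first stretch was thus close between genotypes within each set.

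**Figure D4:**
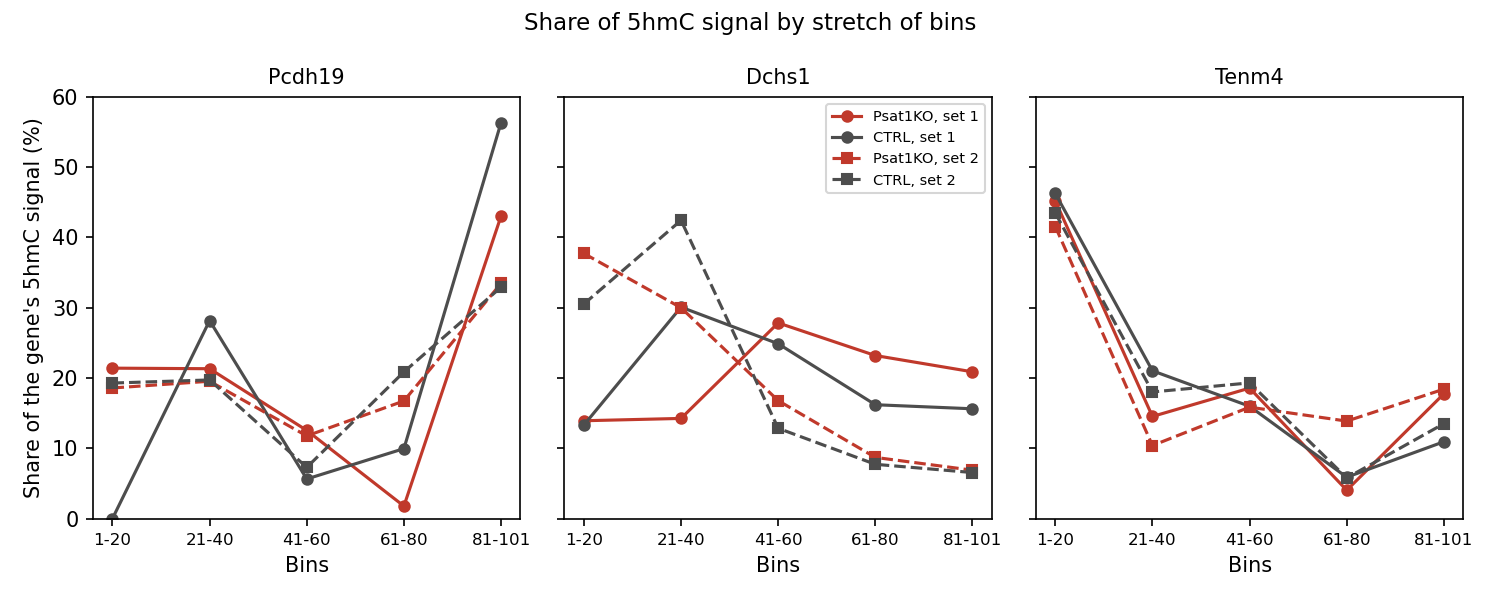
Lines give the share of the 5hmC signal of each gene (percent, vertical axis) in 5 consecutive stretches of bins (horizontal axis), for Psat1KO (red) and CTRL (grey) in set 1 (solid) and set 2 (dashed). Pcdh19 ends between 32.9% and 56.3% in its 4 libraries, and Tenm4 starts at 45.2% in Psat1KO and 46.2% in CTRL of set 1; shares of Dchs1 and Tenm4 are to be read only within a set.

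Tenm4 had 10 high bins in Psat1KO and 9 in CTRL in each set. In set 1, bins 11, 12, 16 and 17 were shared, and the highest bin was 14 in Psat1KO, with 18 reads, and 12 in CTRL, with 14 reads. In CTRL, bin 14 held too little to count as high. In set 2, bins 3, 5, 7, 8, 17 and 31 were shared, 60% of the Psat1KO and 66.7% of the CTRL high bins. The highest was bin 8 in Psat1KO, with 12.7 reads, and bin 7 in CTRL, with 19 reads. The peak thus stood 1 or 2 bins apart between genotypes within each set. Profiles had a Pearson r of 0.484 in set 1, at place 4 of 49 DOWN genes, and 0.618 in set 2, at place 23 of 50.

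Other adhesion genes were read from 5 lists chosen with earlier results of these data known. The lists named 178 genes besides these 3, and the tables held 10 of them. Their median Psat1KO to CTRL ratio was 1.00 in set 1 and 1.02 in set 2, against 0.983 and 1.03 over all genes. Cdh5, the cadherin of endothelial junctions, and Itgb3, an integrin subunit, were higher in Psat1KO in both sets. Their ratios were 1.12 and 1.09 for Cdh5 and 1.33 and 1.09 for Itgb3 (sets 1 and 2). Itga5, the alpha subunit of a fibronectin receptor, was lower in both at 0.978 and 0.972, as was Mcam, an immunoglobulin-family adhesion molecule, at 0.884 and 0.933. The remaining 6 changed direction between the sets, and limma called 0 of these 10 genes.

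The partners of Dchs1 were also in the tables. Fat4, the cadherin that binds Dchs1, was a DOWN gene with levels of 0.0143 in Psat1KO and 0.0184 in CTRL of set 1, and 0.0158 in Psat1KO and 0.0149 in CTRL of set 2. Its ratios of 0.776 and 1.06 differed in direction, as at Tenm4 and in contrast to Dchs1. Fjx1, whose fly counterpart is a Golgi kinase that modifies Fat and Dachsous cadherins, was an UP gene. It had 0.00779 in Psat1KO and 0.00567 in CTRL of set 1, and 0.00699 in Psat1KO and 0.00818 in CTRL of set 2. Fjx1 was the adhesion gene of lowest 5hmC level among the UP genes in every library, below Pcdh19. The tables thus held 3 of the 18 listed genes of this pathway, of which only Dchs1 kept a direction in both sets.

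Of the protocadherin list, 3 of 71 genes were present, all marked UP. Pcdh9, a protocadherin most studied in neurons, had ratios of 0.909 and 1.16 in sets 1 and 2. Pcdhgc5, a gene of the clustered gamma protocadherins, had 1.39 and 0.970. Pcdh19 was the protocadherin of lowest level in CTRL, and the only one of the 3 with a higher Psat1KO level in both sets. The cadherins Cdh6, with 0.864 and 1.45, and Cdh11, with 1.03 and 0.930, also had opposite directions. Among the 9 adhesion genes marked UP, Pcdh19 ranked 6 and 7 in Psat1KO of sets 1 and 2, against 8 and 7 in CTRL. No teneurin partner was in the tables, and Tenm4 was the only gene present of the 11 on the teneurin list.

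**Figure D5:**
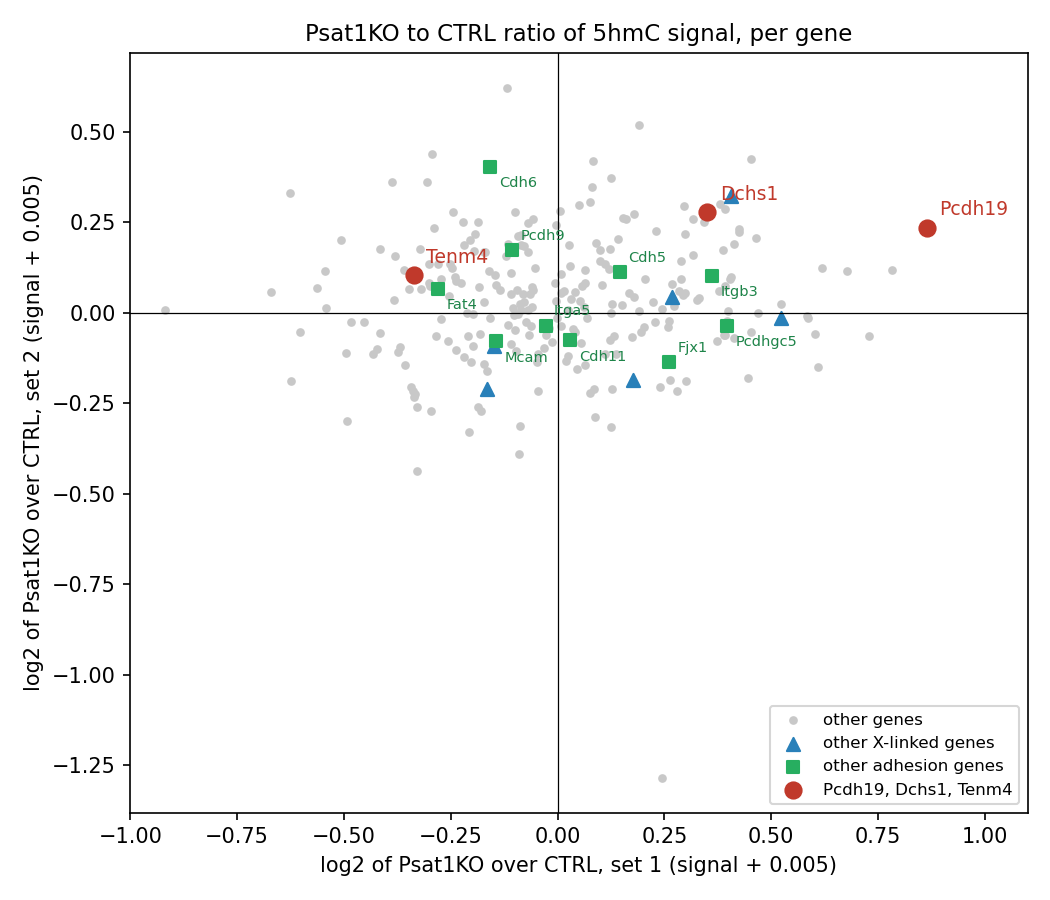
Each point is a gene with a level of at least 0.005 in all 4 libraries (Hic1 not drawn), placed by its log2 ratio of Psat1KO to CTRL in set 1 (horizontal) and set 2 (vertical), with 0.005 added to each signal. Pcdh19 lies at 0.86 and 0.23 at the right edge, Dchs1 at 0.35 and 0.28, and Tenm4 at -0.34 and 0.10; other adhesion genes are green squares and other X-linked genes blue triangles.

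Genes whose pair of ratios was most like that of each gene were taken from the same UP or DOWN group, by distance between log2 ratios in the 2 sets. Nearest to Pcdh19 were Ptgs2, the inducible cyclooxygenase (ratios 2.18 and 1.1, distance 0.14), the sphingosine-1-phosphate receptor gene S1pr3 (1.74 and 1.1) and Rnase4 (1.71 and 1.12). Their likeness to Pcdh19 in both ratios follows from this choice. Nearest to Dchs1 were Bend6 (1.31 and 1.23, distance 0.029), Tmod1, the gene of an actin-filament capping protein (1.44 and 1.22), and Atp2a1, the calcium pump of fast fibres (1.39 and 1.17). Nearest to Tenm4 were Fsd2 (0.786 and 1.12, distance 0.048), Fat4, and the creatine kinase gene Ckm (0.741 and 1.16). With 2 ratios per gene these neighbours describe 4 libraries.

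Among the genes of cell types that the cultures could hold, 3 of 13 listed myogenic markers were in the tables, all marked DOWN, namely Pax7, Myf5 and Myf6. Their median ratios were 0.964 in set 1 and 0.899 in set 2. Of 13 fibroadipogenic markers, 9 were present and marked UP, with 4 higher and 3 lower in Psat1KO in both sets and median ratios of 1.07 and 1.04. Of all 220 UP genes, 65 were higher and 49 lower in both sets, with median ratios of 0.959 and 1.04. Of 10 endothelial markers, Cdh5 and Eng were present, with ratios of 1.12 and 1.09 for Cdh5 and 0.855 and 1.24 for Eng. The part of differing cell types in the values of Pcdh19, Dchs1 and Tenm4 was not tested.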

How the data were processed

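The build named in the submitters' processing notes is mm10. Those notes also name MACS 1.4.2, Bowtie 1.3.1 and Trim Galore 0.6.7, without saying what each did. The authors deposited a coverage signal in bins along each gene, in 2 tables with blocks headed by genotype. How the bins were made, and with which tool, window, orientation, scaling or input correction, is not stated in the labels or file headers. Libraries were assigned by the genotype of the block and the number of the table. Of the low values, 75.6% to 85.5% lay within 1% of a whole multiple of a step, which was taken as 1 read. Scaling to 1000000 reads was assumed, since the step does not show it, and the depths rest on it. A ratio of Psat1KO to CTRL was taken within a set. Signals below 0.001 counted as empty.

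All 273 genes were fitted with limma 3.58.1 in R 4.3.3 on log2(signal + 0.005), checked on simulated data, at an adjusted p under 0.05 (Benjamini-Hochberg). A pseudocount of 1 was an alternative. Reads were obtained by dividing signal by the step, so they are units of coverage and need not be distinct reads. Intervals are exact Poisson for sums and exact binomial for ratios (95%). Genes named are Pcdh19, Dchs1, Tenm4, all listed genes in the tables, and the 3 nearest genes by ratio. X-linked genes and those reaching a ratio of 1.2 in both sets were added after values were seen. The genes and lists were chosen with earlier results of these data known. Transcripts matched RefSeq annotation of GRCm38 for 268 genes, and symbols for 5.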

Additional observations from a re-analysis of the deposited data

How the results depend on the processing

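With the replicate number as a block, limma called 0 of 273 genes, and 13 had an unadjusted p under 0.05. It also called 0 genes with a pseudocount of 1 or 0.001, low genes left out, libraries scaled to their median, the median over bins, bins limited to 0.5, or any library left out, with smallest adjusted p-values between 0.154, without CTRL replicate 1, and 1. With the lone library of a genotype, its spread was taken from the other genotype. The labels do not state that numbers pair the libraries. The set 1 minus set 2 deviations of the genotypes correlated at 0.220 over 214 UP genes and at 0.761 over 49 DOWN genes, whose profiles had a median correlation near 0 between the sets, and 2 pairs cannot settle it. The mean log2 ratio with replicates left out ranged from 0.31 to 1.23 for Pcdh19, from 0.31 to 0.37 for Dchs1 and from -0.37 to 0.13 for Tenm4, whose direction turned without replicate 1. Within sets, 2 alternatives left the counting interval. With bins limited to 3 times the mean, the log2 ratio of Pcdh19 in set 1 was 2.27, since the limit cut every covered bin of the CTRL library. With the median over bins it was 1.00 for Dchs1 in set 2, where the median bin held about 2 reads in Psat1KO and 1 in CTRL. Over bins 21 to 80 alone, the excess at Dchs1 was smaller, a log2 ratio of 0.25 in set 1 and 0.13 in set 2. For Pcdh19 and Tenm4 the median bin was near 0 in both libraries of set 1 and in CTRL of set 2, so no ratio was given. In Psat1KO of set 2 it was 0.0142 for Pcdh19 and 0.0143 for Tenm4, about 1 read. High bins depended on their definition. At 4 times the mean, Pcdh19 had 8 and 6 in Psat1KO (sets 1 and 2) against 10 and 2 in CTRL, which turned the order in set 1, Dchs1 had 2 in Psat1KO and 6 in CTRL of set 1, and Tenm4 had 6 in either genotype of set 2. At 2 times the mean, Pcdh19 had 14 and 14 in Psat1KO against 10 and 27 in CTRL, which turned the order in set 2, Dchs1 had 17 and 15 in Psat1KO against 14 and 16 in CTRL, and Tenm4 had 13 and 14 in Psat1KO against 15 and 16 in CTRL. Low coverage limits Pcdh19 most, with a sum of 18 reads by the step in CTRL of set 1.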
